A study of Mus musculus with 38 samples.

Results

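Collagens are the structural proteins of the extracellular matrix, built from alpha chains that wind into triple helices. The 42 genes described here are all genes of the bulk RNA-seq table whose symbol has the form Col, number, a, number, except Col4a1 and Col4a2, out of 23481 genes listed. They were followed in mouse embryonic stem cells (mESCs) of the E14 line, grown in 2i/L medium (a MEK inhibitor, a GSK3 inhibitor and LIF), and during exposure to 0.25 µM all-trans retinoic acid (RA) in N2B27 medium, which drives the cells towards ectoderm-like and extraembryonic endoderm-like (XEN-like) fates. Bulk RNA-seq comprised 25 libraries: 2 of mESCs, 1 at each of 6, 12, 24, 36, 48, 60, 72, 84 and 96 h of RA exposure, 2 each of ectoderm-like (CD24+/PDGFRA-) and XEN-like (PDGFRA+/CD24-) cells sorted at 96 h, 1 of each sorted population after further culture, 4 of PDGFRA- cells at 48 h by CD24 quartile (Q1 to Q4), and at 72 h 3 of PDGFRA- cells by CD24 tercile (T1 to T3) and 1 of PDGFRA+/CD24- cells. Both cultures were kept in N2B27 medium with EGF and FGF2. The ectoderm-like culture was sampled at passage 5, on poly-D-lysine and laminin, and the XEN-like culture after 3 weeks as floating aggregates. Single cells were measured by SCRB-seq at 9 time points and by SMART-seq2 at 4.

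Fibrillar collagens (types I, II, III, V, XI, XXIV and XXVII) form the banded fibrils of connective tissue and cartilage, and FACIT collagens attach to those fibrils. Network collagens build basement membranes and sheets, type VI forms beaded filaments, and multiplexins such as collagen XVIII (Col18a1) sit in basement membranes. Type I collagen is assembled from Col1a1 and Col1a2 chains, and type III from Col3a1 alone.

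The bulk values are counts of unique molecular identifiers (UMIs), each standing for 1 tagged transcript end, given here also as CPM, the count scaled to a library total of 1000000. Totals ranged from 1063830 to 2459483 UMIs per library, with a median of 1665383. Intervals are exact 95% Poisson intervals and cover counting error only. The second sorted XEN-like library stood apart from the first, with 348 against 3075 UMIs (317 against 1562 CPM) for Col4a1 and Col4a2 together. Summed markers followed the gates: 9 XEN markers reached 10487 and 6347 CPM in the sorted XEN-like libraries against 401 and 1568 CPM in the sorted ectoderm-like ones. Pluripotency markers also differed, at 6267 and 4524 CPM in the sorted XEN-like, 790 and 432 CPM in the sorted ectoderm-like, and 13436 and 18353 CPM in the mESC libraries, and their part in the XEN-like values below was not tested.

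The members were mostly low. All 42 had at least 1 UMI in some library, but only 11 reached 50 UMIs in any, 11 more reached 10 to 49, and 20 stayed under 10. Of the 11 that reached 50, 10 were highest in the ectoderm-like culture and the other was Col18a1. The fibrillar class held 5 of those 11 (Col1a1, Col3a1, Col5a1, Col5a2 and Col11a1), the beaded filament class 3 (Col6a1, Col6a2 and Col6a3), and the network class none. Col4a1 and Col4a2, left out by the rule, are also network collagens. At 96 h of RA that pair held 3926 UMIs, against 173 for all members together.

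**Figure D1:**
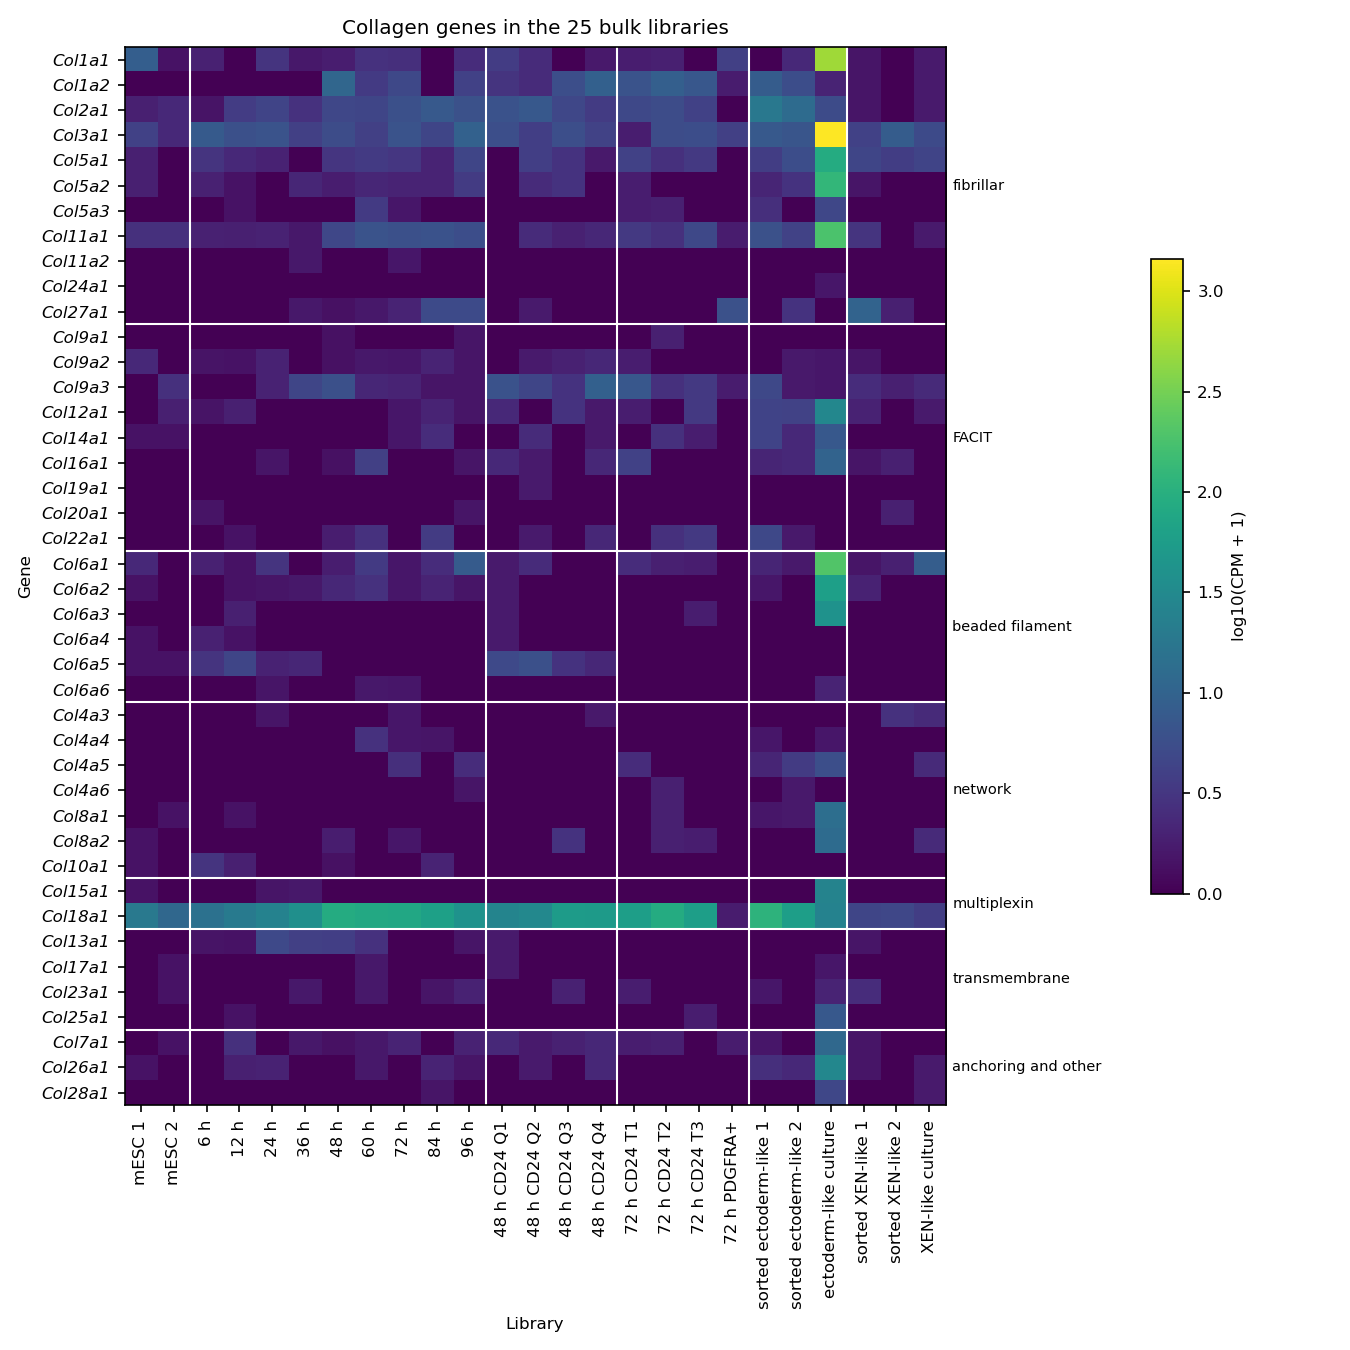
Level of each of the 42 genes (rows, by class) in the 25 bulk libraries (columns), as log10(CPM + 1). Col18a1 forms the band that runs through most libraries, and the ectoderm-like culture is the column in which 17 of the 22 genes that reached 10 UMIs were highest.

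RefSeq promoter windows (250 bases before to 50 after the start, GRCm38.p6) were matched for 33 of the 42 members. Those of Col18a1 and Col3a1, the 2 members with UMIs in all 25 libraries, and of Col1a2, a fibrillar gene with another pattern, are shown, with capitals marking the TATA box letters TATAAA, the CAAT box letters CCAAT, the GC box letters GGGCGG and the RA receptor half-site AGGTCA on either strand. Col18a1 has 2 windows, at chr10:77166481-77166780 and chr10:77113656-77113955 (both minus strand). Col3a1 lies at chr1:45311288-45311587 and Col1a2 at chr6:4505368-4505667 (both plus strand).
Col18a1, upstream start: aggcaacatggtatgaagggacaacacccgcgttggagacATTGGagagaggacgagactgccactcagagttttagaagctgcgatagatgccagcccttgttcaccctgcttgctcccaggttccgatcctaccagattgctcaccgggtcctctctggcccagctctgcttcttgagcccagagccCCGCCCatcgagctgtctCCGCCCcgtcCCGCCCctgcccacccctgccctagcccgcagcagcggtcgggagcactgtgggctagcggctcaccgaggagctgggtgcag
Col18a1, downstream start: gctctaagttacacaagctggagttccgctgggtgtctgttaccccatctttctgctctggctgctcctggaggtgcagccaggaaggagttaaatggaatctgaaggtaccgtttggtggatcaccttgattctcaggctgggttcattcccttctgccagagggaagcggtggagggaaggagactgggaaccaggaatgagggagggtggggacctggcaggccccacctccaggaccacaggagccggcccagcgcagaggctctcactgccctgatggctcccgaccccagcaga
Col3a1: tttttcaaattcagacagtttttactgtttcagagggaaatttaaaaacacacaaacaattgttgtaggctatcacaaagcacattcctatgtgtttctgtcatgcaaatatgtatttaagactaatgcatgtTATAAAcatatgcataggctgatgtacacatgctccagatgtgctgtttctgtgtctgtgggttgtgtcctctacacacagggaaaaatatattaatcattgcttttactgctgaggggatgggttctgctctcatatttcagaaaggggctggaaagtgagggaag
Col1a2: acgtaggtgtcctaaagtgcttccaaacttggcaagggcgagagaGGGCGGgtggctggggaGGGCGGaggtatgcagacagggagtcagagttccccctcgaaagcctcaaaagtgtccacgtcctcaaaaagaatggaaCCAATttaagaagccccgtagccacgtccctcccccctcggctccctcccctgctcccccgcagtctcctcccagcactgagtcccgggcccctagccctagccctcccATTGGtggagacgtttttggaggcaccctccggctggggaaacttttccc
The upstream Col18a1 window holds the CAAT box letters once and the GC box letters 3 times, and the downstream window holds none of the letters searched. Col3a1 holds the TATA box letters once, at base 134 of a window with 250 bases before the start. Col1a2 holds the CAAT and GC box letters 2 times each. These are letter matches anywhere in the window, and whether any acts as a promoter element was not tested. Among 32851 promoter windows, 13.6% hold the TATA box letters, 37.4% the CAAT box, 35.7% the GC box and 16.3% the half-site. Over the members' 36 windows, 5 held the TATA box letters, 11 those of the CAAT box, 21 those of the GC box and 8 those of the half-site. The 3′ tags do not tell which Col18a1 start was used.

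Over the time course Col18a1 (chromosome 10, 77052178 to 77166548) was the main member. It stood at 17.9 and 10.4 CPM in the 2 mESC libraries and at 14.2, 19.4, 24.4 and 36.3 CPM at 6, 12, 24 and 36 h. It then stood at 86.2 CPM (212 UMIs) at 48 h, 79.9 at 60 h, 78.5 at 72 h, 62.2 at 84 h and 39.5 CPM (77 UMIs) at 96 h. The libraries from 48 to 84 h all lay above the mESC libraries and above that at 96 h. The log2 change was 2.60 from mESCs to 48 h and -1.13 from 48 to 96 h, in libraries without replicates at either later time. From 48 to 96 h the summed XEN markers went from 461 to 10284 CPM and the ectoderm markers from 2437 to 1709 CPM, and their part in the change of Col18a1 was not tested. Col18a1 made up 45.6% and 51.1% of all member UMIs in mESCs and 68.6% at 48 h.

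Fibrillar genes each stayed low throughout. Their sum was 15.3 and 4.79 CPM in the mESC libraries and 33.3 CPM in the 96 h library, a log2 change of 1.73. Col1a2 had 0 UMIs in both mESC libraries and up to 36 h, then 25 UMIs at 48 h (10.2 CPM), 4 at 60 h, 7 at 72 h, 0 at 84 h and 6 at 96 h. Its partner chain Col1a1 had 18 and 1 UMIs in the 2 mESC libraries, which thus differed from each other, and 0 to 4 UMIs at every later time. Col2a1, the fibrillar collagen of cartilage, ranged from 1 to 13 UMIs with its highest value at 84 h (6.74 CPM). Col3a1 had 5 to 17 UMIs under RA, highest at 96 h (8.71 CPM), and 7 and 3 in mESCs.

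Among the other members, Col11a1 had 61 UMIs over the time course, at most 10 in a library. Col6a1 had at most 4 UMIs before 96 h and 14 at 96 h (7.17 CPM). Col13a1, a transmembrane collagen, peaked at 24 h with 8 UMIs, and Col6a5 at 12 h with 8. Col27a1 had 8 UMIs at both 84 and 96 h and at most 2 before.

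**Figure D2:**
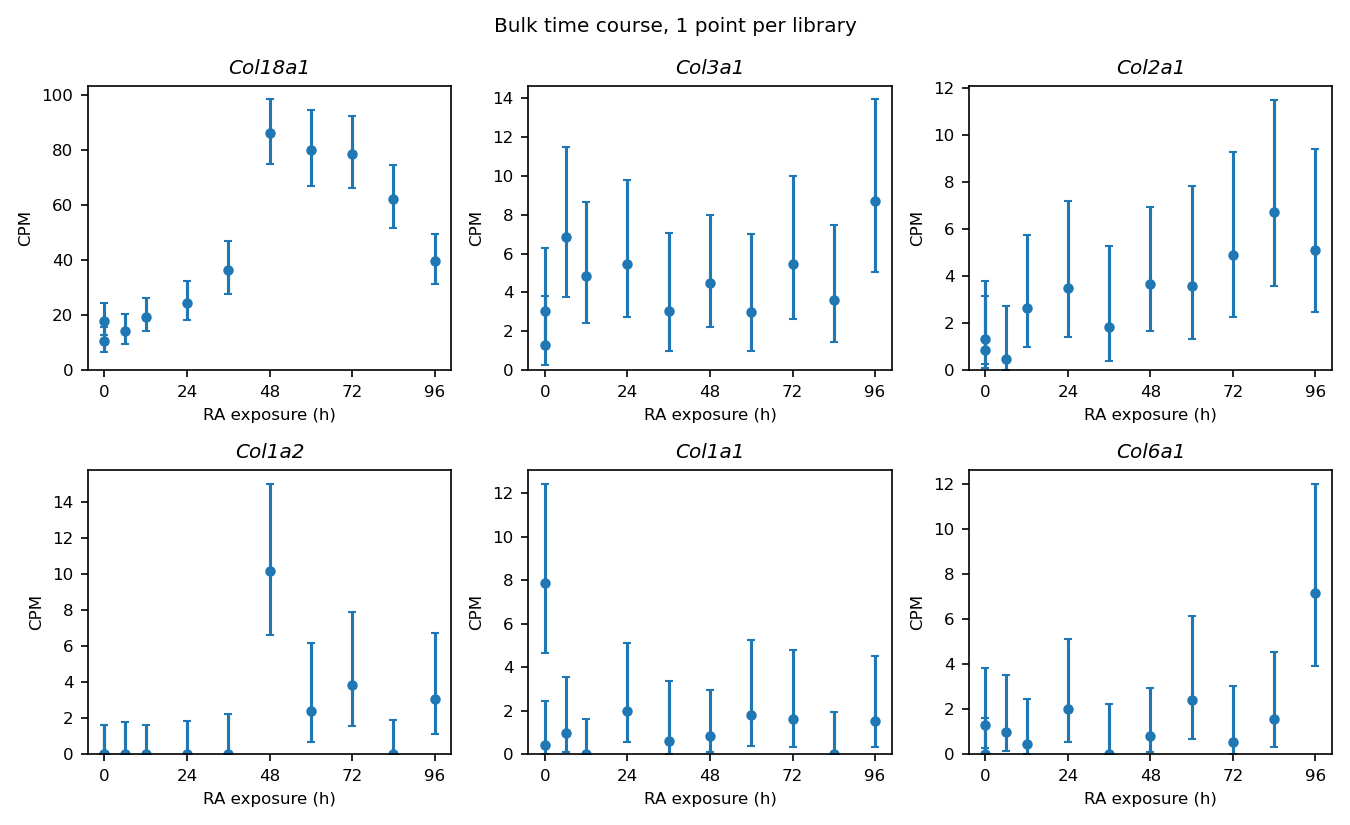
CPM of 6 collagen genes against hours of RA exposure in bulk, 1 point per library (2 at 0 h), with exact 95% Poisson intervals. Col18a1 peaks at 86.2 CPM at 48 h, and the other 5 genes stay at or under 10.2 CPM.

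Between 96 h of RA and mESCs, a comparison of 1 library with 2 that has no test, genes with at least 20 UMIs over both sides were compared by fold. Only 3 members met that minimum. Col18a1 (2.78-fold, interval 1.97 to 3.93) and Col3a1 (3.99-fold, 1.73 to 9.76) were at least 2-fold higher, where 24.4% of 9346 genes were. Col1a1 was at least 2-fold lower, where 9.84% were, with 3 against 19 UMIs and a ratio of 0.371 (0.0703 to 1.26). 18 of those 19 UMIs came from 1 mESC library, and without it the call was lost. Scaling by TMM lowers the 96 h against mESC change of the member sum from 1.57 to 1.19 (log2), and the median over all genes was 0.33 before it.

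Sorted cells gave the only replicated comparisons, tested with edgeR's quasi-likelihood test over 8947 genes with Benjamini-Hochberg adjustment. Only Col18a1, Col2a1 and Col3a1 passed the low-count filter. Fewer cells of a type and less RNA per cell cannot be told apart in such bulk samples.

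Col18a1 stood at 111 and 58.1 CPM in sorted ectoderm-like cells, at 17.9 and 10.4 CPM in mESCs, and at 3.56 and 3.65 CPM in sorted XEN-like cells. The 3 groups did not overlap. Relative to mESCs it was raised in ectoderm-like cells (log2 change 2.25, SE 0.39, edgeR adjusted p = 0.0021), lowered in XEN-like cells (-2.18, SE 0.52, edgeR adjusted p = 0.011), and lower in XEN-like than in ectoderm-like cells (-4.43, SE 0.49, edgeR adjusted p = 0.00069). Without the first XEN-like library the XEN-like against mESC call was lost (-1.995, edgeR adjusted p = 0.105).

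Col2a1 had 31 and 18 UMIs in sorted ectoderm-like cells, 2 and 3 in mESCs, and 1 and 0 in sorted XEN-like cells. Its level exceeded that of mESCs in ectoderm-like cells (log2 change 3.34, SE 0.63, edgeR adjusted p = 0.0034) and lower in XEN-like than in ectoderm-like cells (-5.13, SE 0.84, edgeR adjusted p = 0.0032). Both calls were lost without the first ectoderm-like library, at log2 values of 3.11 and -4.85 (edgeR adjusted p = 0.070 and 0.067). Without the first XEN-like library, which held the only XEN-like UMI, the fitted difference between the sorted populations was -7.53 and that from mESCs -4.19, values that depend on the prior count. Its XEN-like against mESC change of -1.79 did not pass (edgeR adjusted p = 0.31).

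Col3a1 passed in none of the 3 comparisons, with 12 and 9 UMIs in sorted ectoderm-like, 6 and 8 in XEN-like and 7 and 3 in mESC libraries. In all, against mESCs, ectoderm-like cells had 2 of the 3 tested members higher, where 9.85% of genes were, and none was lower (9.28%). Against mESCs, XEN-like cells had 0 members higher (12.3% of genes) and 1 lower (10.5%). Between XEN-like and ectoderm-like cells, 0 members were higher in XEN-like cells (6.99%) and 2 were lower (5.74%). Col1a2 did not pass the filter, with 13 and 7 UMIs in ectoderm-like cells, 0 in both mESC libraries, and 1 and 0 in XEN-like cells. With no filter Col1a2 was called in ectoderm-like cells as higher against mESCs (edgeR adjusted p = 0.00074) and against XEN-like cells (edgeR adjusted p = 0.022). These calls depended on the setting. DESeq2 did not call Col1a2 against mESCs (DESeq2 adjusted p = 0.083) and gave it no adjusted p between the sorted populations. Col27a1 had 18 and 1 UMIs in the sorted XEN-like libraries and 0 and 3 in the ectoderm-like ones, so its XEN-like value rested on 1 library.

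Of 30 genes for enzymes and chaperones that make collagen 17 were tested, and 10 were higher in XEN-like than in ectoderm-like cells, where 6.99% of all genes were, and none lower; the other 7 did not pass, among them Pcolce (-0.74) and Loxl2 (-0.66). The list had a median log2 difference of 1.87 against -0.06 over all genes. P4ha2, a subunit of the prolyl hydroxylase that stabilizes the helix, was higher by 3.49 (SE 0.45, edgeR adjusted p = 0.0012), and Serpinh1, the collagen chaperone HSP47, by 2.75 (SE 0.42, edgeR adjusted p = 0.0026). Of 7 collagen receptor genes 1 was tested, the integrin subunit Itgb1, which was higher than in mESCs in both sorted populations (2.02 and 2.55, edgeR adjusted p = 0.00084 and 0.00019). Col4a1, left out of the members, was higher in XEN-like than in ectoderm-like cells by 2.75 (SE 0.62, edgeR adjusted p = 0.014).

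In the gates at 72 h Col18a1 stood at 57.5, 86.5 and 58.3 CPM in the PDGFRA- terciles T1, T2 and T3, and at 0.735 CPM (1 UMI) in PDGFRA+/CD24- cells. All 3 PDGFRA- libraries lay above the PDGFRA+ one, in which pluripotency markers summed to 7169 CPM against 1314 in T3. T3 against PDGFRA+ cells was a 79.4-fold difference (interval 13.8 to 3176), resting on 76 against 1 UMI in 1 library each. It was the only member with at least 20 UMIs in that comparison, in which 14.5% of 6765 genes were at least 2-fold lower and 11.5% higher in PDGFRA+ cells.

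At 48 h, within PDGFRA- cells, Col18a1 stood at 25.4, 28.6, 52.6 and 51.1 CPM from Q1 to Q4. The unsorted 48 h library, the peak of the time course, stood above every quartile at 86.2 CPM, and the reason was not tested. The upper 2 quartiles lay above the lower 2, and Q4 was 2.01-fold Q1 (interval 1.35 to 3.04). TMM scaling took this value under 2-fold. It was 1 of 2 members with enough UMIs to be at least 2-fold higher (5.58% of 6954 genes), and none was lower (4.5%). The other was Col9a3, a FACIT collagen, with 8 and 13 UMIs in Q1 and Q4 (1.53-fold, 0.589 to 4.27). Col1a2 had 3, 2, 5 and 13 UMIs from Q1 to Q4, and Col6a5 had 6 and 7 in Q1 and Q2.

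**Figure D3:**
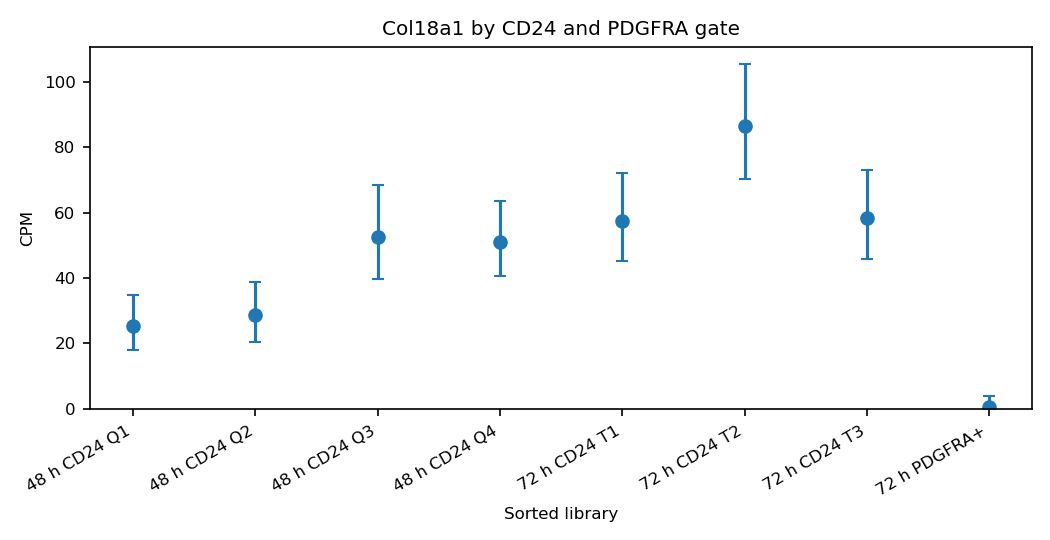
Col18a1 in CPM in the 8 libraries sorted by CD24 and PDGFRA, with exact 95% Poisson intervals and 1 library per gate. PDGFRA+/CD24- cells at 72 h lie at 0.735 CPM, and the PDGFRA- terciles of the same time between 57.5 and 86.5 CPM.

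The ectoderm-like culture, 1 library, held the highest sum of the members. Member UMIs summed to 5301 (2838 CPM), against 314 and 165 UMIs in the sorted ectoderm-like libraries, and 83.3% of them were fibrillar. Col3a1 stood at 2712 UMIs (1452 CPM) against 12 and 9 in the sorted cells, a 231-fold difference (interval 151 to 374). Col1a1 had 946 UMIs against 0 and 2 (848-fold, 234 to 7009).

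Other fibrillar and beaded filament genes were high in the same library. Col11a1 had 345 UMIs (44.2-fold, 25.96 to 81.6), Col5a2 231 (82.8-fold, 34.97 to 257) and Col5a1 165 (24.6-fold, 13.7 to 48.7). Col6a1 had 369 UMIs against 3 in the sorted cells (220-fold, 74.8 to 1074), and Col6a2 112 against 1 (201-fold, 35.3 to 7996). Col6a3 had 75 against 0, at least 44.8-fold higher at a floor of 3 UMIs over both sorted libraries, and Col15a1 46 against 0, at least 27.5-fold higher. The FACIT gene Col12a1 (8.63-fold, 4.46 to 18.3) and Col26a1 (18.99-fold, 7.65 to 60.9) each had 53 UMIs.

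3 members went the other way. Col18a1 had 45 UMIs (24.1 CPM), 0.279 of the sorted level (0.199 to 0.383), Col2a1 had 8 UMIs against 49 summed (0.293, 0.120 to 0.623), and Col1a2 had 2 against 20 (0.179, 0.0203 to 0.738). Col1a1 and Col1a2, the chains of one molecule, were thus at 946 and 2 UMIs in the same library. Whether the alignment or transcript model of Col1a2 lowers its counts was not tested, since the reads were not analysed here. Of 19 members with at least 20 UMIs 16 were at least 2-fold higher, where 17.4% of 9586 genes were, and 3 at least 2-fold lower (14.9%). Most of the 16 met the minimum through the culture itself, so their share is no evidence of direction.

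Markers of mesenchymal cells moved with these genes. All 10 of the list were higher in the ectoderm-like culture than in both sorted ectoderm-like libraries (Twist2 by 2 UMIs against 0), summing to 2763 CPM against 58.9 and 203 CPM in the sorted ectoderm-like libraries and 21.4 CPM in the XEN-like culture. Most of this sum came from Postn, Dcn and Acta2. Postn had 1924 UMIs and Dcn 1440, against 8 and 0, and 5 and 8, in the sorted libraries, while ectoderm markers summed to 1653 CPM against 3270 and 2803, and XEN markers to 2006 CPM against 401 and 1568. Their part in the collagen result was not tested. In the XEN-like culture Col18a1, Col3a1 and Col5a1 had 4, 6 and 5 UMIs. The 1 member with enough UMIs, Col3a1 (0.906-fold, 0.285 to 2.51), was neither 2-fold higher (24.2% of 8993 genes) nor lower (17.9%), and under that minimum Col6a1 had 11 UMIs against 1 and 1 (11.6-fold, 2.54 to 108) and Col27a1 0 against 18 and 1, nearly all in 1 library.

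**Figure D4:**
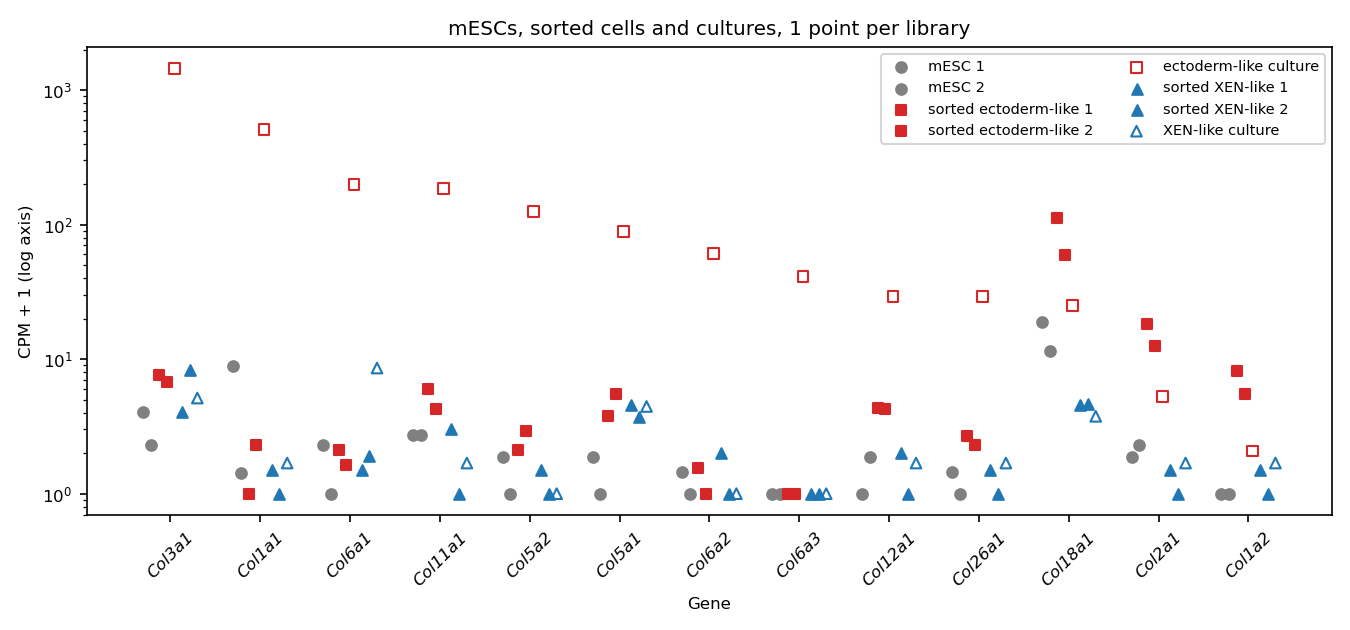
CPM plus 1, on a log axis, of 13 collagen genes in mESC, sorted and cultured libraries, 1 point per library. The ectoderm-like culture (open squares) lies above every other library for the first 10 genes and below the sorted ectoderm-like libraries for Col18a1, Col2a1 and Col1a2.

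SCRB-seq counts UMIs in single cells of 1 plate per time point, in which the well names are plate positions and recur from plate to plate. 2448 of 3456 wells had more than 2000 UMIs and were kept, 137 of them at 96 h. Members had a UMI in 34 of 42 cases, 9 with at least 50 UMIs over all times, and Col18a1 held 1856 UMIs against 146 for the next, Col2a1.

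In the plates Col18a1 went from 0.202 UMIs per 10000 at 0 h (interval 0.143 to 0.277) to 0.517 at 6 h, 0.774 at 36 h, 1.74 at 48 h and 2.89 at 60 h (2.65 to 3.16), and stood at 2.44 at 72 h and 2.50 at 96 h. The plate values did not show the decline between 48 and 96 h of the bulk libraries. They also rose between 0 and 6 h, where the bulk library at 6 h lay between the mESC libraries. Cells with a Col18a1 UMI made up 9.93% at 0 h and 61.2% at 60 h, or 3.90% and 40.3% after each cell was thinned to 2000 UMIs. Plate and time cannot be told apart, and no cell type of the series was known to lack the gene as a background.

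Of the lower members, Col5a1 had UMIs on 8 of 9 plates, at most 15 on each. Col1a2 had at most 1 UMI per plate up to 36 h, then 36 at 48 h, 45 at 60 h, 9 at 72 h and 0 at 96 h. Col3a1 had at most 1 UMI per plate up to 72 h and 24 at 96 h. Col27a1 had 41, 30 and 38 UMIs at 60, 72 and 96 h and at most 3 before, and Col6a5 was highest at 36 h with 60, where bulk had its highest count at 12 h.

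**Figure D5:**
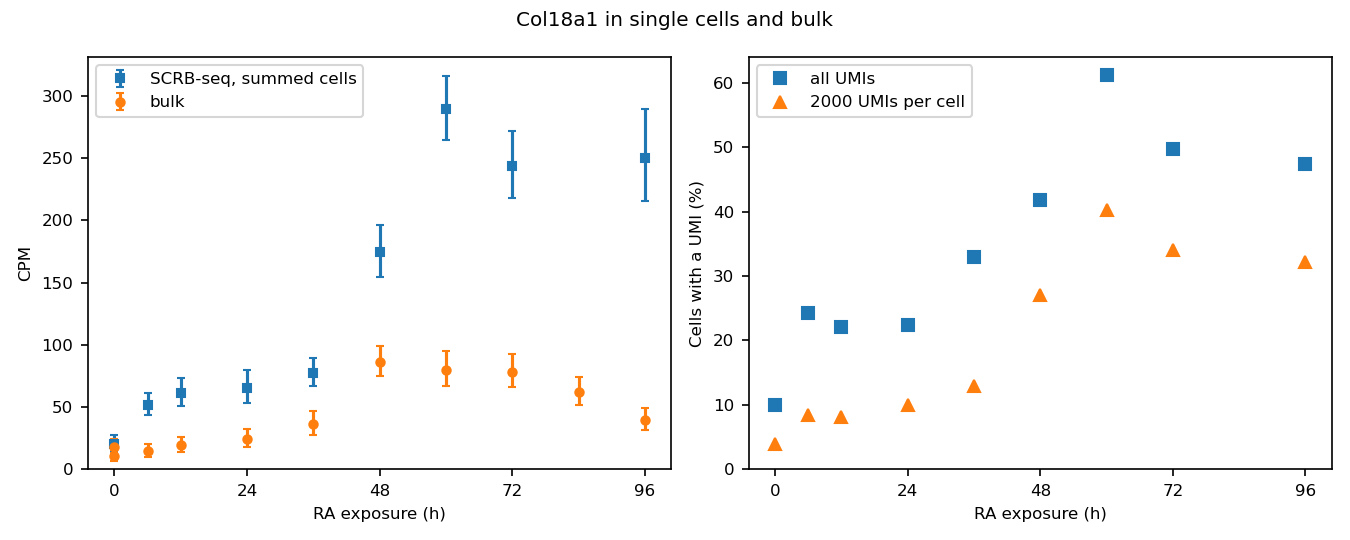
Left, Col18a1 in CPM against hours of RA exposure in summed SCRB-seq cells (squares) and bulk libraries (circles), with exact 95% Poisson intervals. Right, percent of SCRB-seq cells with a Col18a1 UMI at full depth and at 2000 UMIs per cell, which reach 61.2% and 40.3% at 60 h.

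At 96 h the cells were split into 2 clusters on variable genes without any Col gene. The cluster with the larger excess of XEN over ectoderm marker sums was named XEN-like (52 cells), and the other ectoderm-like (85 cells). The names are thus relative. In the cluster named ectoderm-like the XEN marker sum (35.6) still exceeded the ectoderm marker sum (21.9). In the XEN-like cluster these sums were 151.9 and 8.43. The sorted ectoderm-like libraries had the opposite order, with 401 and 1568 CPM for XEN and 3270 and 2803 CPM for ectoderm markers. All 9 XEN markers were higher in the XEN-like cluster and 10 of 11 ectoderm markers in the ectoderm-like one. The same lists gave the names and were not left out of the clustering, so these counts are no independent check of the names. The ectoderm-like cluster held 165 Col18a1 UMIs and the other cluster 17, a ratio of 5.92 in level (3.59 to 10.4). Col3a1 had 23 and 1, Col2a1 25 and 4, and Col27a1 11 and 27. These splits of the lower members were counted for this clustering only. For Col3a1 the sorted libraries gave no call between XEN-like and ectoderm-like cells (log2 -0.27, edgeR adjusted p = 0.84), unlike the cluster counts. The boundary between the clusters was not stable: Malat1, a nuclear non-coding RNA, held 43.2% of the variance over the genes used, and the XEN-like cluster numbered 84 of the 137 cells on log2 values and 94 without Malat1 (chosen after seeing the data). The Col18a1 ratio was then 2.74 and 2.55, so its size depends on the clustering while its direction did not change in the 4 alternatives run. On log2 values and without Malat1, ectoderm markers exceeded XEN markers in the ectoderm-like cluster (sums of 27.86 against 22.98, and 28.91 against 20.65). They did not with Col genes included or in wells with more than 4000 UMIs. The 10 leading genes of the XEN-like cluster began with Gm6083 (5.08-fold) and held the pluripotency gene Dppa5a and 1 of the listed XEN markers, Gata4.

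SMART-seq2 values are RPKM, from 82, 86, 89 and 82 cells at 0, 12, 24 and 48 h. Col18a1 was above 1 RPKM in 75.6% of cells at 0 h and 87.8% at 48 h, with means of 25.01, 40.2, 36.95 and 79.8 RPKM over the 4 times. Col1a2 was above 1 RPKM in 27 of 82 cells at 48 h, with a mean of 12.5 RPKM, and in 1, 1 and 0 cells at 0, 12 and 24 h. Col6a5 was above it in 7, 19, 26 and 6 cells from 0 to 48 h, and Col13a1 in 4, 10, 18 and 8.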

How the data were processed

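Bulk and SCRB-seq values are UMI counts as the authors deposited them: reads were aligned with BWA 0.7.4 to mouse RefSeq transcripts of the mm10 set, and unique UMIs were counted per gene without normalization. The authors gave SMART-seq2 values as RPKM from TopHat and Cuffnorm. In the bulk table, 2 genes with 3 text entries were left out. Members and lists were chosen with earlier results of these data known. All members are accounted for; values are given for Col1a1, Col3a1, Col18a1 and members with at least 50 UMIs in a bulk library or called, others by count or, for a few, as examples chosen after their values were seen. Replicated groups were tested with edgeR 4.0.16 (TMM, filterByExpr, quasi-likelihood; R 4.3.3), with DESeq2 1.42.0 as an alternative. The study describes the mESC and sorted libraries as biological replicates. Other comparisons are folds (at least 2-fold, at least 20 UMIs summed, a floor of 3 counts only where a side had 0; with 1 to 3 counts the ratio is given as counted, with its interval, so it can exceed the bound of a gene at 0). SCRB-seq cells (more than 2000 UMIs) at 96 h were split by k-means with a correlation distance over 823 variable genes and 50 starts. Both the test and the clustering were tested on simulated data. In the test simulation 200 genes were changed by 2 (log2) in each comparison. Of these, 72% were recovered for ectoderm-like against mESC and 70% for XEN-like against mESC. For XEN-like against ectoderm-like 57% were recovered, so a member without a call may still have changed. In the clustering simulation, recovery was poorer when each cell kept its measured Malat1 level, so the clustering was also run without Malat1. RPKM were scaled per cell to a common total, and text entries with a decimal comma, all under 1 RPKM, were read as 0. Python 3.11.15 was used.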

Additional observations from a re-analysis of the deposited data

Results flagged for a closer look

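The change of Col18a1 from mESCs differed between the sorted populations: the XEN-like change minus the ectoderm-like change was -4.43 (log2, edgeR adjusted p = 0.00069), up in both ectoderm-like and down in both XEN-like libraries. For Col2a1 the difference was -5.13 (edgeR adjusted p = 0.0032). Both changes share the same mESC libraries, which cancel in the difference. These values are the XEN-like against ectoderm-like comparisons given above, not separate tests.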

How the results depend on the processing

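Of 214 alternative values for 35 results, 189 were classed as the same as the reported value, by rules that differed between kinds of result. For counts of members called, small shifts were allowed, so that 3 in place of 2 was classed as the same. Of the others, 7 were classed as stronger, 14 as weaker, 3 as moved and 1 as reversed. The 3 that moved were Col18a1 ratios between the 96 h clusters, which kept their direction. In the edgeR comparisons, leaving out 1 library moved the members called between 1 and 3 (ectoderm-like higher than mESC), 0 and 1 (XEN-like higher), 0 and 2 (XEN-like lower) and 1 and 2 (XEN-like lower than ectoderm-like). The Col3a1 difference between XEN-like and ectoderm-like cells reversed to 0.47 without the first XEN-like library and was -1.02 without the second. Without the low-count filter, 3 members were higher and 1 lower in ectoderm-like cells than in mESCs. In XEN-like cells 1 was then higher and 2 lower than in mESCs, and 3 were lower than in ectoderm-like cells. More genes entered the fit in that setting, and why the calls changed was not tested. At 96 h against mESCs, 1 member was higher and 0 lower at a minimum of 50 UMIs or at 3-fold, and 0 to 1 were lower leaving out 1 mESC library. For CD24 Q4 against Q1, 0 members were higher under TMM scaling or at 3-fold. In the ectoderm-like culture, 10 were higher at a minimum of 50 UMIs. The log2 Col18a1 ratio between the 96 h clusters, 2.57 as reported, was 1.46 on log2 values, 3.85 in wells with more than 4000 UMIs and 1.35 without Malat1. Sorted replicates share only a number (correlation of deviations 0.333 across 8947 genes, 2 pairs); with the replicate block, 2 members stayed lower in XEN-like cells and Col18a1 changed by -4.53. Counts under about 20 UMIs limit most members.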
